A study of Mus musculus with 31 samples.

Results

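The comparison concerns the thalamus of male mice whose mothers had been reared in social isolation (SIR males) and of male mice of control mothers. The libraries were chosen by their titles, which mark 7 SIR males and 8 control males, 15 of the 31 libraries of the series. All were adult offspring at postnatal day 90, and the rearing concerns the mother: the labels name no treatment of the offspring themselves. Polyadenylated RNA of the thalamus was sequenced, and kallisto estimated a count for each transcript. The labels name neither strain, litter nor batch. The p-values therefore measure the spread between these animals, with any littermates taken as independent. Every SIR library carries a lower library number than any control, so handling cannot be told apart from the rearing of the mother.

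The thalamus relays sensory, motor and limbic signals to the cortex. Its relay neurons release glutamate, the neighbouring reticular nucleus inhibits them through GABA, and the axons that leave it are wrapped in myelin by oligodendrocytes. Rearing rodents in isolation is a widely used model of early social stress, and a mother with that history can pass effects to her young through the womb or through her care.

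Library totals were 19.03 to 25.25 M (mega) estimated counts in SIR males and 14.81 to 25.18 M in controls. The Y-linked genes Ddx3y, Eif2s3y, Uty and Kdm5d were present in every one of the 15 libraries, with Ddx3y at 31.6 to 50.37 counts per mega-count of the library (CPM). The markers of the labelled tissue were high: summed over 21 genes of thalamic relay neurons they reached 5324 to 8566 CPM in SIR males and 5958 to 8314 CPM in controls. Markers of neighbouring tissue varied from library to library in both groups, with 17 tested hypothalamic genes summing to 100.6 to 781.2 CPM in SIR males and 199.6 to 759.3 CPM in controls. Fewer cells of a type and less RNA per cell cannot be told apart in such tissue samples.

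With all 15 libraries, 76 of 14503 genes passed edgeR's quasi-likelihood test at an adjusted p below 0.05 (0.524%). Of these, 11 were higher in SIR males (0.0758%) and 65 lower (0.448%). The changes were small: the median size was 0.26 on the log2 scale with a median SE of 0.05, and 0 of the 76 exceeded 1. In 37 of the 76 the lowest library of one group lay above the highest of the other, which held for 72 of all genes tested (0.496%). A further reading is given by the unadjusted test, where 2589 genes had a p below 0.05 (17.9%), 1098 higher (7.57%) and 1491 lower (10.3%).

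These calls lie just under the threshold. Their edgeR adjusted p-values run from 0.0433 to 0.0495, and 51 of the 76 share the value 0.0433. In 11 of 15 fits that left out a single library, 0 genes passed, with 2020 to 2633 genes at an unadjusted p below 0.05 in those fits. The other 4 gave 284 genes without SIR male 14, 229 without control male 27, 144 without control male 23 and 86 without control male 28. Removing the dependence on transcript length described below also left 0 genes, with 1834 at an unadjusted p below 0.05 (12.6%) and a lowest adjusted p of 0.151. By contrast DESeq2 called 615 genes and limma-voom 323. All 76 kept their direction in each of 30 other settings, so the count is uncertain and the directions of these genes, which were selected on the same libraries, are a description of them. "Rose" and "fell" below mean that a gene passed with all 15 libraries.

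**Figure D1:**
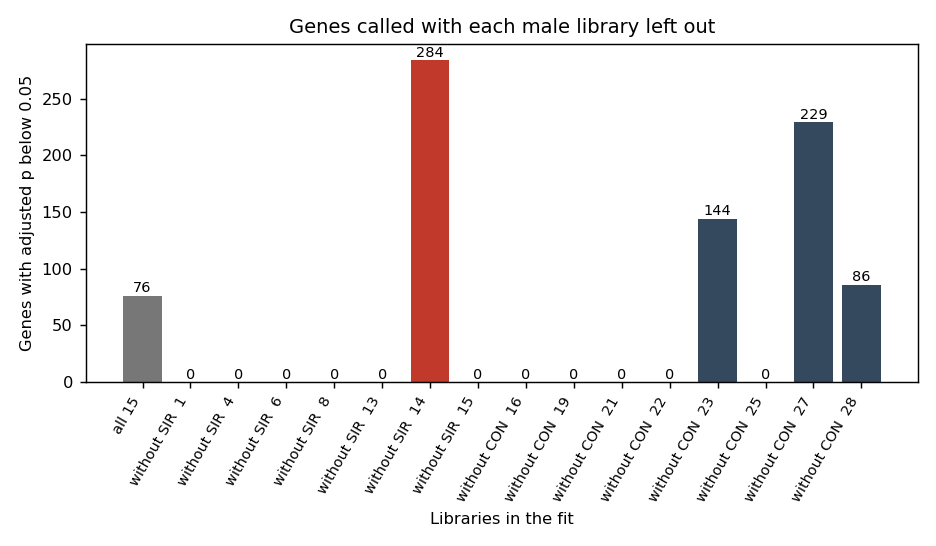
Number of genes with an adjusted p below 0.05 (y axis) in the fit on all 15 male libraries and in 15 fits that each left out the library named on the x axis. The count was 76 with all libraries, 0 in 11 of the 15 other fits, and 284 without SIR male 14.

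The 11 genes that rose include 3 that are known from glia. Cd82, a tetraspanin of the cell surface, ran from 28.83 through a median of 34.01 to 37.17 CPM in SIR males and from 21 through 26.51 to 29.5 CPM in controls. All 7 SIR males lay above the control median and the groups overlapped in their tails. Its log2 fold change was 0.36 ± 0.07 (SE, edgeR adjusted p = 0.0433). S1pr5, the sphingosine-1-phosphate receptor of oligodendrocytes, stood at 26.85, 30.71 and 40.05 CPM (lowest, median and highest) in SIR males and at 21.09, 24.37 and 29.84 CPM in controls. SIR male 14 was its highest library, and the log2 fold change was 0.39 ± 0.09 (edgeR adjusted p = 0.0481). S100b, a calcium-binding protein of astrocytes and oligodendrocytes, ran from 164.3 to 184.5 CPM against 139.2 to 167.6 CPM, with a log2 fold change of 0.23 ± 0.05. Each of the 3 has a short to middling transcript, and with the length trend removed their log2 fold changes were 0.35, 0.40 and 0.20.

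The other 8 genes that rose have varied roles. Wbp1, which encodes a protein that binds WW domains, had the smallest p of all genes (7.82e-06). Its SIR males ran from 19.53 through 20.86 to 23.32 CPM and its controls from 15.09 through 16.9 to 18.37 CPM, so the groups did not overlap. The log2 fold change was 0.33 ± 0.05, and 0.31 with the length trend removed. Map2k2, the MAP kinase kinase MEK2, the mitochondrial ribosomal protein gene Mrpl4 and the splicing factor gene Hnrnpl also had groups that did not overlap, with log2 fold changes of 0.18, 0.24 and 0.15, and of 0.16, 0.21 and 0.14 with the length trend removed. Fxyd5, a regulator of the sodium pump, changed most among the genes that rose (0.52 ± 0.11) at a level of 5.96 to 8.34 CPM in SIR males and 3.84 to 6.12 CPM in controls. Its transcript of 643 bases is shorter than that of nearly all genes tested, and the difference was 0.46 with the length trend removed. Cavin3, a coat protein of caveolae, rose by 0.28, Cbs, the enzyme that joins homocysteine and serine, by 0.30 and Prl8a1, of the prolactin family, by 0.45. These 3 differences were 0.27, 0.30 and 0.425 with the length trend removed. Prl8a1 belongs to a family of similar genes, so its reads could have been shared with relatives.

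Several of the named genes that fell encode proteins of the synapse or of the membrane. Pclo, whose product piccolo is a scaffold of the presynaptic active zone, ran from 180.3 through a median of 211.9 to 229.7 CPM in SIR males and from 238.6 through 270.3 to 313.7 CPM in controls. The groups did not overlap, and it fell by 0.36 ± 0.06 on the log2 scale (edgeR adjusted p = 0.0433). Its effective length of 11751 bases exceeds that of nearly every other gene, and with the length trend removed the difference was -0.22. Kcnh7, a potassium channel of the ERG type, ran from 20.52 through 21.77 to 26.1 CPM against 25.23 through 31.37 to 35.62 CPM and fell by 0.45 ± 0.08. Its transcript is long too, and its difference with the length trend removed was -0.32. Cnksr2, a postsynaptic scaffold of Ras signalling, and the cell adhesion gene Pcdh10 fell by 0.33 and 0.22, with differences of -0.27 and -0.155 once the length trend was removed.

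The other genes that fell with the smallest p act inside the cell or at its surface. Rasal2, a GTPase-activating protein for Ras, ran from 56.38 through 64.86 to 67.27 CPM in SIR males and from 69.99 through 76.13 to 85.85 CPM in controls. The groups did not overlap, and it fell by 0.30 ± 0.05. Atrx, a chromatin remodeller on the X chromosome, fell by 0.40 ± 0.07, and Scai, a suppressor of cell invasion that acts on SRF-dependent transcription, by 0.47 ± 0.09. Osbpl8, a lipid transfer protein of the endoplasmic reticulum, ran from 38.67 to 43.88 CPM against 47.38 to 71.29 CPM and fell by 0.41 ± 0.08. With the length trend removed the differences of Rasal2, Atrx, Scai and Osbpl8 were -0.21, -0.34, -0.39 and -0.35. Cep295 of the centriole, the BMP receptor Bmpr2, the autophagy protein Atg2b, the phosphodiesterase Pde10a and Stox2 fell by 0.33, 0.26, 0.25, 0.28 and 0.20, and in each the groups did not overlap. With the length trend removed, the differences of these 5 were -0.28, -0.12, -0.18, -0.19 and -0.08. Pde10a is also a marker of the striatum, the only gene of 11 tested on that list to pass. Of these 11 genes 7 were positive, at a median of 0.04, and 0.06 with the length trend removed. Summed striatal markers, Pde10a among them, reached 506.5 to 550.2 CPM in SIR males and 518.7 to 583 CPM in controls. The part of the striatum in the Pde10a result was not tested.

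The receptor genes Oprm1 and Chrm3 fell as well, and their transcripts are of middling length. Oprm1, the mu-opioid receptor, ran from 2.04 through 4.96 to 6.06 CPM in SIR males and from 6.77 through 7.997 to 11.14 CPM in controls. The groups did not overlap, with SIR male 14 lowest, and the log2 fold change was -0.85 ± 0.18 (1.81-fold lower, edgeR adjusted p = 0.0433). At an effective length of 2090 bases its difference was -0.86 with the length trend removed and -0.86 with both length and GC trends removed. Chrm3, the M3 muscarinic acetylcholine receptor, ran from 18.36 through 26.93 to 29.67 CPM against 30.61 through 35.39 to 37.9 CPM. It fell by 0.39 ± 0.08, and the difference was -0.36 with the length trend removed. Mu-opioid receptors are abundant in the habenula, which borders the thalamus. Summed over 11 tested genes, markers of the habenula stood at 44.46, 63.84 and 90.55 CPM in SIR males and at 47.67, 54.94 and 151.1 CPM in controls. The groups overlapped, 4 of these 11 genes were positive, and the part of the habenula in the Oprm1 result was not tested.

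**Figure D2:**
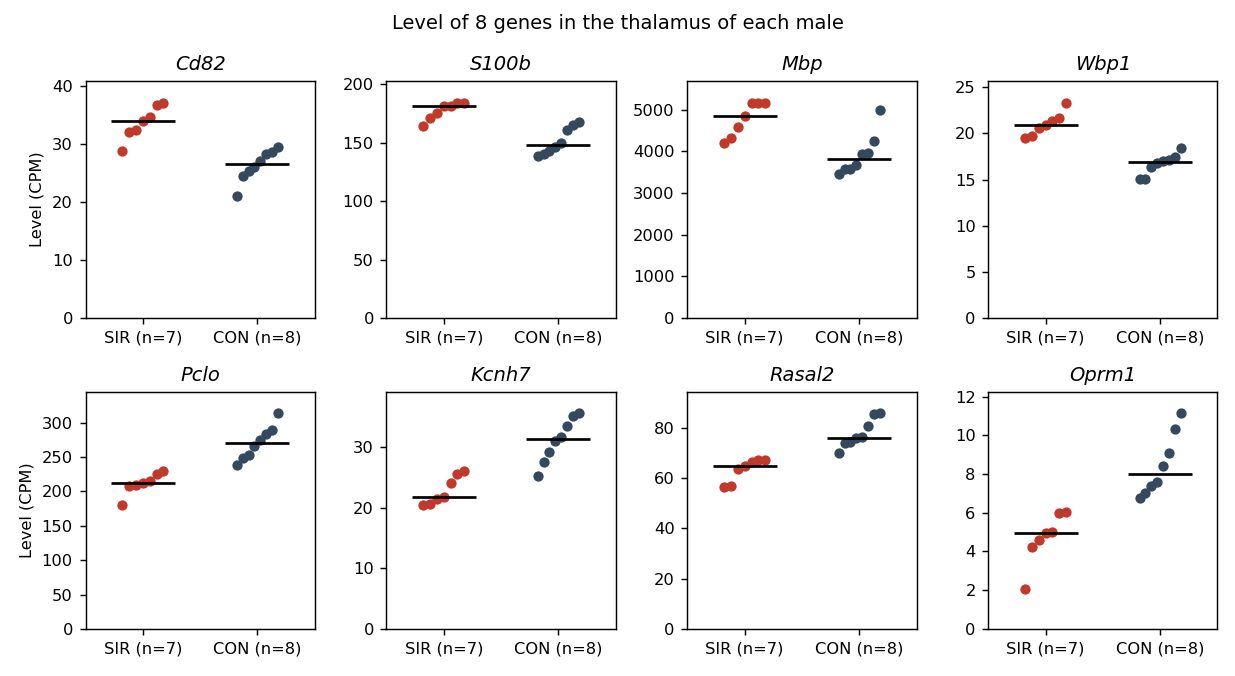
Level in CPM (y axis, from 0) of 8 genes in each male library (points) with the group median (line), for SIR males and control males (CON). The groups did not overlap in Wbp1, Pclo, Rasal2 and Oprm1 and overlapped in Cd82, S100b, Kcnh7 and Mbp, of which Mbp did not pass the test.

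The sequence before the start of 3 of these genes is shown to set a gene that rose (Cd82) beside a gene with a long transcript (Rasal2) and one of middling length (Oprm1) that fell. The windows are the 250 bases upstream of the RefSeq start (build GRCm38.p6), each at the start of the gene's most abundant transcript, 5′ to 3′ on the strand of the gene. Capitals mark GC boxes (GGGCGG or its complement CCGCCC, searched on both strands). Cd82 lies on the minus strand at chr2:93462503-93462752, Rasal2 on the minus strand at chr1:157412596-157412845 and Oprm1 on the plus strand at chr10:6758343-6758592.
Cd82: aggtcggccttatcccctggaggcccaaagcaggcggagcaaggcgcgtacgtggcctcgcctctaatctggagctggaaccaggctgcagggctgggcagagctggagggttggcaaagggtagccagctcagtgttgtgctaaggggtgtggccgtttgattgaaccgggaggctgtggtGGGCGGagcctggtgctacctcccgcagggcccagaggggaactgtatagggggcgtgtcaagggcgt
Rasal2: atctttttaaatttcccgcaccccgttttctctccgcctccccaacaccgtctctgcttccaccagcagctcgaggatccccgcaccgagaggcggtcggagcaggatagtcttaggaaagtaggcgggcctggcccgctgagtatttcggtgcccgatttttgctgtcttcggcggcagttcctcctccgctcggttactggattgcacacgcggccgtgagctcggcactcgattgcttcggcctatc
Oprm1: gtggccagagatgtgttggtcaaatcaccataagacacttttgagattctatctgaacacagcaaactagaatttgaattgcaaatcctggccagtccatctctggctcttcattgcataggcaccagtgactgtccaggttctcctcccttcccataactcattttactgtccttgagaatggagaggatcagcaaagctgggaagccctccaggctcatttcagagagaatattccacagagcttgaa
The Cd82 window held 1 GC box and 12 CpG dinucleotides at 64.4% GC, that of Rasal2 0 boxes and 23 CpG at 59.6% GC, and that of Oprm1 0 boxes and 0 CpG at 45.6% GC. Among 9268 tested genes with such a window at most 200 bases from that start, 61.3% held a GC box and the median GC content was 60.4%. Of the genes called, 4 of 8 higher and 28 of 40 lower with a window held one.

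The difference between the groups depended on transcript length. Genes were divided into 5 equal classes by effective length, the number of positions at which a read of a transcript could start. In the shortest class, with a median of 932 bases, the median log2 fold change was 0.06 and 71% of 2902 genes were positive. It was 0.02, 0.00 and -0.02 in the next classes, and -0.07 in the longest (median 5250 bases), where 27.4% of 2901 genes were positive. The longest class held 45 of the 65 genes that fell and 0 of the 11 that rose. Genes that fell had a median effective length of 4861 bases and genes that rose one of 1594 bases. Over 14503 genes, which are not independent replicates, Spearman's correlation of the log2 fold change was -0.33 with length and 0.38 with the GC content of the transcript.

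**Figure D3:**
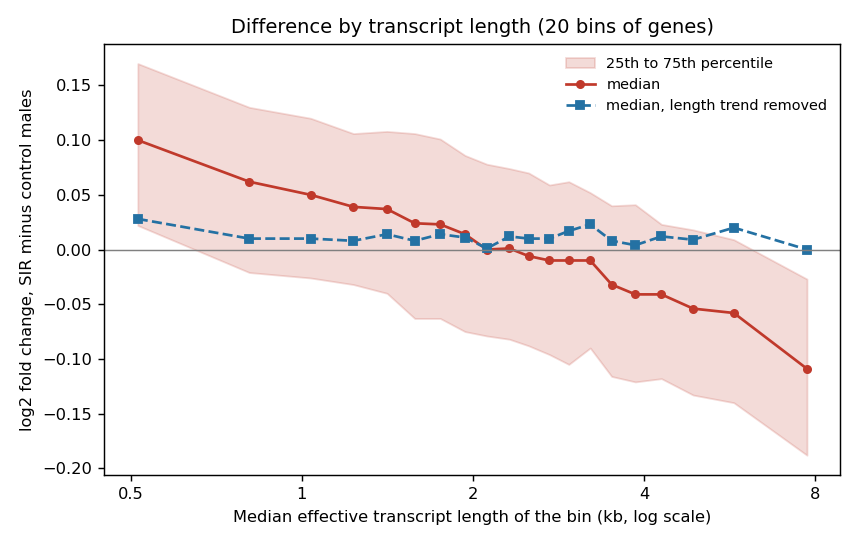
Median log2 fold change of SIR minus control males (y axis) in 20 bins of genes ordered by effective length in kb (x axis, log scale), with the 25th to 75th percentile shaded and the median after removal of the length trend as a dashed line. The median falls from 0.10 in the shortest bin to -0.11 in the longest, and stays between 0.00 and 0.03 once the trend is removed.

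The same dependence was measured as 1 value for each animal, the slope of its log2 levels, relative to the mean of all 15, on log2 effective length. The slope was -0.024 ± 0.025 (SD, n = 7) in SIR males and 0.021 ± 0.023 (n = 8) in controls. It was below 0 in 6 of 7 SIR males and above 0 in 6 of 8 controls, the exceptions being SIR male 14 (0.015) and control males 27 (-0.021) and 28 (-0.004). The difference of -0.044 per doubling of length had an exact 2-sided permutation p of 0.00373, and 0.0186 after adjustment over 10 measures of the libraries. The slope on GC content differed by 0.084 per 10 percentage points (exact permutation p = 0.00295, adjusted 0.0186). Library total, the mitochondrial share and the shares of transcript classes had adjusted exact permutation p-values of 0.279 or more. Over transcripts in place of genes, the length slope differed by -0.011 (exact permutation p = 0.388). Whether the length dependence arose in the tissue or in the handling of the RNA was not tested.

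**Figure D4:**
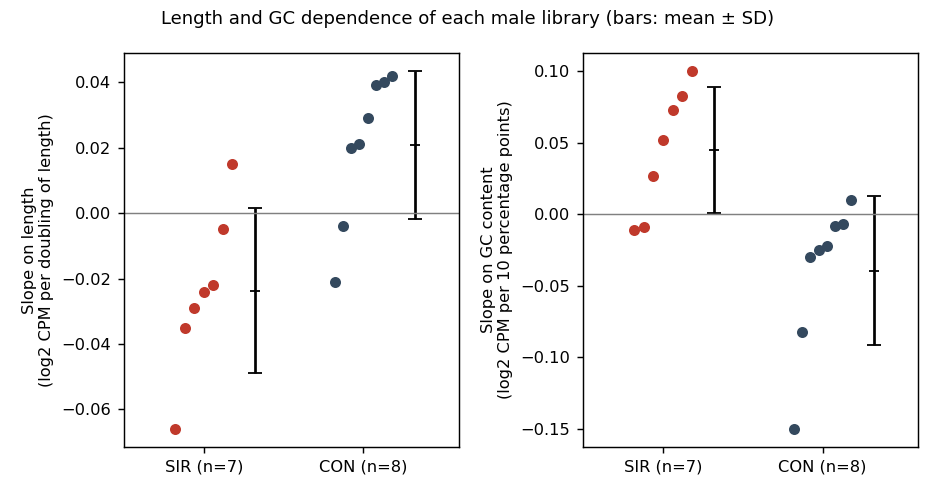
Slope of each male library's log2 CPM on transcript length (left y axis, per doubling) and on GC content (right y axis, per 10 percentage points), with points for libraries and bars for mean ± SD. Most SIR males lie below 0 on the left and above 0 on the right, and the groups overlap in both.

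Removing the length trend from each library reduced the median size of the 76 differences from 0.26 to 0.20 at a median SE of 0.05. All 76 kept their direction, and 75 had an unadjusted p below 0.05. With length and GC trends removed together the median size was 0.17 and 66 had an unadjusted p below 0.05. Several named genes then moved by more than 1.5 times. Bmpr2 went from -0.26 to -0.05 (edgeR unadjusted p = 0.183), Stox2 from -0.20 to -0.08, Pclo from -0.36 to -0.19, Kcnh7 from -0.45 to -0.24 and Pcdh10 from -0.22 to -0.13. Rasal2 (-0.19), Atrx (-0.26), Scai (-0.30), Cep295 (-0.21) and Cnksr2 (-0.22) moved likewise, as did Map2k2 (from 0.18 to 0.095) and Mrpl4 (from 0.24 to 0.15). Ash1l, a histone methyltransferase with a transcript of 10300 bases, was the gene that lost it with length alone: its difference moved from -0.20 to -0.07 (unadjusted p = 0.0633), and to -0.03 with both trends removed.

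The lists of genes by cell type and pathway are described by counts and medians, beside a median of 0.00 over all genes, of which 49.5% were positive. All 27 genes of oligodendrocytes and myelin were positive, with a median log2 fold change of 0.22, and 0 of 27 passed the test. It was 0.21 with the length trend removed. Mbp, which encodes myelin basic protein, stood at 4208, 4834 and 5166 CPM in SIR males and at 3465, 3812 and 4993 CPM in controls, with a log2 fold change of 0.28 ± 0.08 (edgeR adjusted p = 0.0855). Control males 23 (4993 CPM) and 27 (4255 CPM) lay inside the SIR range. Mobp, of the myelin sheath too, had 0.18 ± 0.07 (edgeR adjusted p = 0.198). The summed level of the list was 10850 to 14050 CPM in SIR males and 9641 to 13390 CPM in controls. Precursors of oligodendrocytes had a median of 0.04, with 7 of 14 positive, and a negative median (-0.015) on the log2(TPM + 1) scale.

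Other cells of the glia and vessels were positive in the median as well. Astrocyte genes had a median of 0.11 (14 of 18 positive, S100b the 1 gene past the test) and microglial genes 0.12 (15 of 18, 0 past the test). Genes of mural and leptomeningeal cells had 0.20 (18 of 20) and endothelial genes 0.09 (14 of 18), with 0 past the test in either. These medians were 0.11, 0.12, 0.24 and 0.14 with the length trend removed.

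Markers of thalamic relay neurons had a median of -0.16 (5 of 21 positive, 0 past the test), and -0.13 with the length trend removed. The most abundant were Adarb1, an RNA-editing enzyme, Prkcd, a protein kinase C, and Rora, a nuclear receptor. Rora ran from 339 through 405.2 to 694.7 CPM in SIR males and from 461 through 548 to 705.1 CPM in controls, with a log2 fold change of -0.24 ± 0.16 (edgeR adjusted p = 0.453). Its SIR males spread more widely than its controls. Adarb1 (0.03 ± 0.12) and Prkcd (0.07 ± 0.14) did not share that sign, and both turned negative in several other settings. With the length trend removed the differences of Rora, Adarb1 and Prkcd were -0.13, 0.12 and 0.09. Relay marker scores, the mean of centred log2 levels over the list, were -0.316, -0.27, -0.239 and -0.299 in SIR males 1, 4, 6 and 13 and 0.129, 0.173 and 0.169 in SIR males 8, 14 and 15, and ran from -0.165 to 0.382 in controls. SIR males 8, 14 and 15 also had the lowest scores of choroid plexus and ependymal genes (-1.245, -1.157 and -0.673), which were 0.272 to 0.436 in the other SIR males and -0.379 to 0.588 in controls. The part of such tissue in the relay list was not tested.

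The lists of receptors for fast transmitters had mostly negative members. Of 20 genes on the list of GABA and glycine receptors, which also holds the scaffold gene Gphn (-0.11), 2 were positive and 0 passed, at a median of -0.16, and -0.11 with the length trend removed. The GABA-B receptor genes Gabbr1 and Gabbr2 had -0.05 ± 0.06 and -0.07 ± 0.10. Of 25 glutamate receptor genes, 5 were positive and 0 passed, at a median of -0.09, and -0.03 with the length trend removed. Grin2b, the NMDA receptor subunit with the longest transcript among the genes named, had -0.23 ± 0.11 (edgeR adjusted p = 0.312), and -0.03 with the length trend removed. Grin1 (0.03 ± 0.06) and Gria1 (-0.06 ± 0.07) changed sign with the setting.

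How far a list's median moved with the length trend differed between lists. The median of neurotrophins, neuregulins and their receptors changed sign, from -0.03 to 0.06, and that of mitochondrially encoded genes went from 0.00 to -0.07. The 40 genes listed as chromatin and DNA methylation enzymes, with a median effective length of 5753 bases and with a few other chromatin proteins among them, had 36 negative, 1 past the test (Ash1l) and a median of -0.10, and -0.03 with the trend removed. The deacetylase genes Hdac5 and Hdac11 had 0.03 ± 0.06 and -0.01 ± 0.06 and changed sign with the setting. Of 34 potassium and HCN channel genes, 26 were negative and 2 fell, Kcnh7 among them, with a median of -0.10 that became 0.01. At the other end, 75 of 77 cytosolic ribosomal protein genes were positive and 0 passed, at a median of 0.12 and a median length of 470 bases, and 0.05 with the trend removed. Of 75 nuclear genes of oxidative phosphorylation, 74 were positive and 0 passed, at a median of 0.12, and 0.06 with the trend removed.

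The most abundant members of these lists did not pass the test. Rpl3 and Rpl4, of the large ribosomal subunit, had 0.03 ± 0.05 and 0.03 ± 0.04, and both turned negative with the length trend removed. Rpsa, of the small subunit, had 0.12 ± 0.05 (edgeR adjusted p = 0.256). Atp5b and Atp5a1, of ATP synthase, had 0.07 ± 0.05 and 0.02 ± 0.04, and Sdha, of complex II, 0.00 ± 0.03. Immediate early genes, which neurons switch on with activity, had a median of 0.23 (15 of 19 positive, 0 past the test), and 0.22 with the length trend removed. The most abundant of them, Jund, ran from 140.1 through 158.3 to 163.2 CPM against 115.7 through 143.5 to 153.7 CPM (log2 fold change 0.18 ± 0.06, edgeR adjusted p = 0.125). Jun had 0.17 ± 0.10 and Egr1 0.27 ± 0.20.

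**Figure D5:**
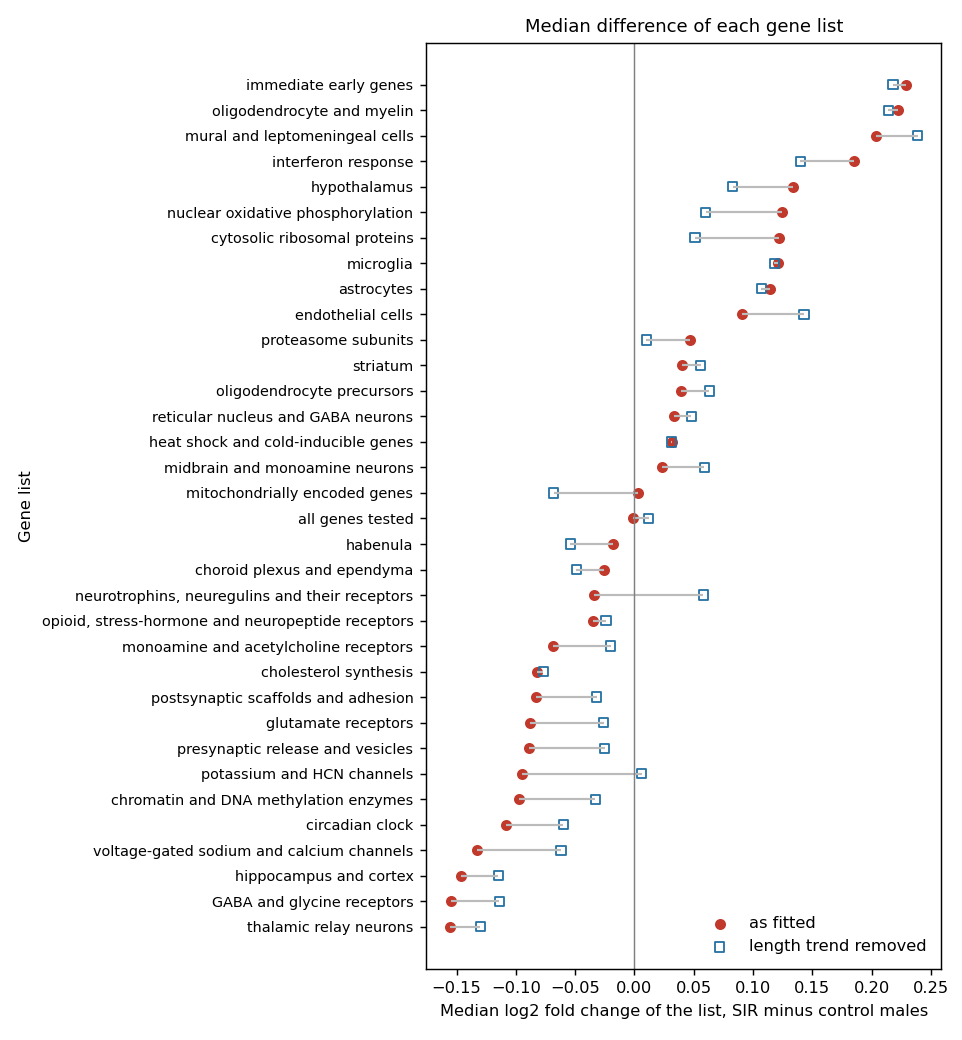
Median log2 fold change of SIR minus control males (x axis) for each gene list and for all genes tested (y axis), as fitted (circles) and with the length trend removed (squares). The oligodendrocyte list stays near 0.22 and 0.21, while ribosomal protein genes move from 0.12 to 0.05 and chromatin enzymes from -0.10 to -0.03.

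At the level of transcripts, 0 of 34928 passed edgeR's test (0%), with 3238 at an unadjusted p below 0.05 (9.27%) and a lowest adjusted p of 0.114. With the length trend removed it was again 0, with 2773 at an unadjusted p below 0.05 and a lowest adjusted p of 0.0842. DESeq2 called 397. The smallest p was that of Grin2d-203, a coding transcript of an NMDA receptor subunit. It ran from 5.01 through 6.04 to 8.01 CPM in SIR males and from 8.93 through 10.96 to 13.75 CPM in controls. The groups did not overlap, which held for 51 of 34928 transcripts (0.146%). The transcripts named were picked by small p on the same libraries. The log2 fold change of Grin2d-203 was -0.87 ± 0.12, and it made up 9.49% of the gene's counts in the median SIR male and 15.58% in the median control. The main transcript, Grin2d-201, had -0.08 ± 0.08. With the length trend removed the differences of Grin2d-203 and Grin2d-201 were -0.82 and -0.02, at effective lengths of 5932 and 6332 bases.

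Next came Tcf7l2-210, of a transcription factor that marks thalamic neurons, with -1.08 ± 0.17 (3.37 to 5.64 CPM against 6.43 to 12.54 CPM), and Fat1-206, of an atypical cadherin, with -0.86 ± 0.14 (5.44 to 8.39 CPM against 8.45 to 15.1 CPM). On the positive side Zfp428-201, of a zinc finger protein, had 0.39 ± 0.07 and Map4-213, of a microtubule-associated protein, 0.77 ± 0.14. Map4-213 ran from 11.66 to 16.37 CPM in SIR males and from 5.66 to 11.56 CPM in controls. Tcf7l2-210, Fat1-206, Zfp428-201 and Map4-213 had -1.08, -0.72, 0.38 and 0.76 with the length trend removed. Over 34928 transcripts the correlation of the log2 fold change with length was -0.07, weaker than over genes. In 5 equal classes of transcripts from shortest to longest, 51.5, 57.4, 52.6, 50.1 and 40.3% were positive. At an edgeR unadjusted p below 0.05, the longest class held 623 lower and 192 higher transcripts. The shortest class held 160 lower and 356 higher. Retained-intron transcripts had a median of 0.05 (55.7% of 3046 positive) and coding transcripts 0.00 (49.8% of 27037 positive).

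Whether transcripts of a gene changed unequally was asked with diffSpliceDGE, which called 21 of 8874 genes (0.237%) and 20 with the length trend removed, 19 of them in both. These calls are weak. On simulated data for this comparison the test made 10 false calls, recovered 7 of 100 genes changed by 1 on the log2 scale and 0 of 100 changed by 0.5. A limma test of each transcript's share made 0 false calls on the simulated data. Its variance was estimated for each transcript and drawn toward a trend with abundance. That share test called 0 genes, with 686 at an unadjusted p below 0.05 (7.73%) and a lowest adjusted p of 0.0503. The values are therefore given as a description.

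Map4 had the smallest p in diffSpliceDGE. Its transcript Map4-214 took 0 to 1.75% of the gene's counts in SIR males and 2.18 to 6.26% in controls, without overlap, while the gene as a whole had a log2 fold change of 0.04. Dgkz-212, a transcript of diacylglycerol kinase zeta that is subject to nonsense-mediated decay, took 17.66 to 32.99% of its gene in SIR males and 2.69 to 14.92% in controls, again without overlap. Chd3-203, a retained-intron transcript of a chromatin remodeller, took 4.94 to 10.87% against 1.75 to 5.65%. Dock3-211, of a guanine exchange factor of neurons, took 16.5 to 31.32% against 9.59 to 15.7%. The 2 sets of shares overlapped in Chd3-203 and did not in Dock3-211. Ttc3-232 took 0.65 to 2.90% against 2.46 to 6.38%, and Cacna1g-209, of a T-type calcium channel of thalamic neurons, 0 to 11.19% against 0 to 2.26%, with overlap in both. These genes were picked by their small p on the same libraries, and the share of all transcripts that separate the groups in this way was not counted. Kallisto's own uncertainty of assignment was not used here, so the error of dividing reads between similar transcripts is not in these values.

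The difference between SIR and control males was compared with that in females, of which 8 were SIR and 8 control offspring. The comparison used 1 fit of all 31 libraries, while the differences within males and within females came from a fit of each sex alone. The male and the female difference themselves differed in 422 of 14886 genes (2.83%), 161 with the more positive value in males (1.08%) and 261 with the more negative (1.75%). 1 library labelled SIR female did not match the Y-linked genes of its label, and without it the count was 464. Of the 76 genes called in males, 22 differed between the sexes, and 52 had the same sign in females. The 76 were selected on the male difference, which is part of that comparison, so the 22 are a description. The share of all genes with the same sign in both sexes was not counted. The 22, the 52 and all differences within females or between the sexes, here and below, keep the library that did not match its label. In the longest class of genes, the median difference was -0.07 in males and -0.04 in females. Cd82 had 0.36 ± 0.07 in males and -0.30 ± 0.07 in females, a difference of 0.66 ± 0.10 (edgeR adjusted p = 0.000773). S1pr5 (0.74 ± 0.12), Prr18 (0.59 ± 0.10) and Fam234a (0.48 ± 0.08) were the next with the more positive value in males. Mbp and Mobp, the myelin genes named above, had -0.28 and -0.35 in females and differed between the sexes by 0.57 ± 0.10 and 0.54 ± 0.11.

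Zic5, Tox, Ndst1 and Fhod3 had the smallest p among the genes with the more negative value in males. Zic5, a zinc finger transcription factor, had mean levels of 5.15 CPM in SIR males, 8.33 in control males, 12.73 in SIR females and 4.55 in control females. Its difference was -0.70 ± 0.22 in males (edgeR adjusted p = 0.122) and 1.48 ± 0.20 in females. Tox, a transcription factor of the HMG-box type, had -0.32 ± 0.09 and 0.60 ± 0.09, and Ndst1, which sulfates heparan chains, -0.16 ± 0.04 and 0.22 ± 0.04. Fhod3, a formin that builds actin filaments, had -0.25 ± 0.06 and 0.27 ± 0.05. None of these 4 passed the test within males. Each of the 8 genes kept its call without the mismatched library and with the length trend removed, where the count was 397. Over genes, the correlation of the difference with length was -0.19 in females, with the mismatched library kept, and -0.33 in males.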

How the data were processed

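Thalamus RNA of 15 male libraries (7 SIR, 8 control), out of 31, was compared. The submitters' processing notes name FastQC, kallisto and the build GRCm39, without versions. For each of 105878 transcripts the authors deposited, per the file headers, a kallisto estimated count, a TPM value, a length and an effective length (unit other, in bases, set by the authors' kallisto run). No source used here says whether the strand of the reads was used, which leaves overlapping and antisense genes uncertain.

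Transcripts were matched by identifier to GENCODE release M21, an annotation of GRCm38. Of them, 104949 (99.12%) matched and gave 25497 genes, and the other 929 were left out. Chromosome names were taken from it, and transcript starts and strands only to choose the promoter windows. Estimated counts were summed per gene, rounded, kept by filterByExpr, scaled by TMM and tested with edgeR 4.0.16 (robust quasi-likelihood test, R 4.3.3), with Benjamini-Hochberg adjustment across every gene tested. Transcripts were tested alike. Levels are CPM on TMM-scaled totals. A gene's effective length is the mean over its transcripts weighted by TPM. The length trend of each library was a natural spline with 4 degrees of freedom of log2 CPM (prior count 2), relative to the gene's mean, on log2 effective length, and entered the fit as an offset. The promoter sequences come from RefSeq (GRCm38.p6), matched by symbol, chromosome and strand. Their start lay at most 200 bases from that of the gene's most abundant transcript.

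Each pair of libraries of a group differed by more than sampling noise (chi-square per degree of freedom 5.38 or more), so each counted as 1 sample. On simulated counts for the gene comparison, the test recovered 64 of 100 genes changed by 0.5 on the log2 scale and 18 of 100 changed by 0.25, with 4 false calls. For transcripts it recovered 26 of 100 changed by 1 and 14 of 100 changed by 0.5, with 1 false call. The simulated data given here, those for transcript usage included, held no trend of length or GC content, unlike the real libraries. Their false calls therefore do not measure what such a trend adds.

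The libraries and the gene lists were chosen with earlier results of these data known. Genes named are, by smallest p, those past the test (up to 12 per direction), up to 4 members of each of 33 lists that passed, and the 3 most abundant members of 8 lists, and some genes that this rule selects are not reported here. Those 8 lists, the 3 promoters, and the transcripts named among the 8 per direction that the rule allows were picked after values were seen. Alternatives numbered 30 for the gene test: other scaling, filters, DESeq2 1.42.0, limma-voom and limma-trend (limma 3.58.1), trends of length and GC content removed, length offsets, all 31 libraries, 1 surrogate variable (sva 3.50.0), a component of the marker scores, the libraries numbered apart left out, and each library left out in turn. A threshold of 0.1 and a fit without robust estimation were added to these. The libraries numbered apart are SIR male 1 and control males 27 and 28 (library numbers 320, 738 and 739). The test of transcript shares was added after diffSpliceDGE made false calls on simulated data, and the slope on GC content after the length dependence was seen.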

Additional observations from a re-analysis of the deposited data

Results flagged for a closer look

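In 124 groups of libraries tested for a value that stands apart, 12 values were found, and chance flags about 1 in 20. Control male 23 was high in Cavin3 (18.1 CPM, next 15.92) and low in total count (14.81 M, next 20.92). SIR male 13 was low in Prl8a1 (5.402 CPM, next 6.815). Control male 16 was high in Grin1 (595.5 CPM, next 522.8) and low in Rpl3 (447.4 CPM, next 477.2). SIR male 14 was low in Chrm3 (18.36 CPM, next 26.47) and Jund (140.1 CPM, next 153.7) and high in the share of counts in nonsense-mediated decay transcripts (2.168%, next 2.132%). Control male 19 was high in the length slope over transcripts (0.062, next 0.013) and in the share of coding transcripts (95.28%, next 94.96%). It was low in the shares of nonsense-mediated decay transcripts (2%, next 2.108%) and processed transcripts (1.276%, next 1.366%).

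The difference between SIR and control animals differed between males and females in 14 of the 48 genes named, by edgeR's test on all 31 libraries. Over all genes tested, 422 of 14886 differed in this way (2.83%). The male minus female value was positive for S1pr5 (0.736), Cd82 (0.66), Fxyd5 (0.635), Mbp (0.568), Mobp (0.536) and S100b (0.406). It was negative for Oprm1 (-0.903), Scai (-0.624), Osbpl8 (-0.499), Kcnh7 (-0.462), Atrx (-0.409), Pclo (-0.371), Pcdh10 (-0.327) and Pde10a (-0.277). The adjusted p-values ran from 0.000773 for Cd82 to 0.0388 for Pde10a. Many of these genes were named because they passed in males, which raises their male value.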

How the results depend on the processing

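The count of 76 genes was 0 under upper-quartile scaling, with no filter, with a transcript length offset and with the length trend, the GC trend or both removed, and 4 on log2(TPM + 1). It was 39 with the marker component, 139 without the libraries numbered apart, 198 with all 31 libraries, 323 with limma-voom, 436 with 1 surrogate variable, 443 at a threshold of 0.1 and 615 with DESeq2. With single libraries left out it ran from 0 to 284. The count of 0 transcripts became 397 with DESeq2 and ran from 0 to 1 with single libraries left out (1 when SIR male 6, SIR male 13 or else control male 28 was omitted). The 21 genes of transcript usage became 35 by the F test and 0 by the share test, and ran from 14 to 52 (52 without SIR male 4). The length slope kept its sign in 19 other settings, from -0.051 to -0.038 with single libraries left out, but was -0.011 over transcripts (exact permutation p = 0.388). The slope on GC content (0.084) is another quantity. The count of genes differing between the sexes was 713 with limma-voom in place of 422. No paired analysis was possible because each replicate number in the titles belongs to 1 library.

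Sign changes occurred in 11 of the named genes, none of which passed the test in either direction with all 15 libraries. With limma-voom Adarb1 was -0.073, Prkcd -0.061, Grin1 -0.009, Hdac5 -0.02 and Hdac11 0.026. With the marker component they were -0.175, -0.162, -0.031, -0.066 and 0.079, with Gria1 at 0.02 and Atp5a1 at -0.023. On log2(TPM + 1) Adarb1 was -0.035, Grin1 -0.001, Hdac5 -0.033, Rpl3 -0.027, Rpl4 -0.023, Atp5a1 -0.015 and Sdha -0.046, and Sdha was -0.004 with the length offset. With the length trend removed Gria1 was 0.013, Gabbr2 0.016, Hdac11 0.014, Rpl3 -0.015 and Rpl4 -0.008. With both trends removed Gria1 was 0.022 and Rpl3 -0.033, and with the GC trend removed Grin1 was -0.02 and Hdac5 -0.025. Hdac11 was 0.02 under upper-quartile scaling. With single libraries left out Adarb1 ran from -0.052 to 0.077, Prkcd from -0.025 to 0.131, Grin1 from -0.009 to 0.058, Hdac5 from -0.01 to 0.063, Hdac11 from -0.047 to 0.034, Rpl3 from -0.003 to 0.064, Atp5a1 from -0.006 to 0.033 and Sdha from -0.006 to 0.018. The cause of these changes was not tested.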
